A study of Caenorhabditis elegans with 12 samples.

Results

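The ttr genes of the nematode Caenorhabditis elegans encode transthyretin-related proteins, and their expression was compared between worms set apart by a fluorescent splicing reporter. Members were taken by name, as every gene called ttr followed by a number, which gave 59 of the 21982 genes listed. All 59 were found in the Ensembl annotation (release 115) of build WBcel235, 58 of them as protein-coding genes and ttr-4 as a pseudogene. Transthyretin itself is a vertebrate protein of blood and cerebrospinal fluid that carries thyroid hormone. The nematode family is a separate, expanded set of small proteins, mostly predicted to be secreted, and most of its members have no described function. TTR-52 is the best studied: it is secreted, binds phosphatidylserine on the surface of dying cells and links them to the phagocyte receptor CED-1. TTR-33 has been linked to protection of dopaminergic neurons from oxidative damage.

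All animals were of strain KH2235, which carries a splicing reporter made from a minigene of ret-1, and were taken at day 6. Fluorescence divided them into Green worms, in which GFP signal predominated, and Red worms, in which mCherry signal predominated, so both groups carry the transgene and neither is a strain without it. RNA came from the whole body, with 6 libraries in Green and 6 in Red, and each of 6 batches held 1 library of either group. Whether the libraries were grown as separate cultures is not stated, and a p-value here covers only the variation seen among the 12 libraries, which may be technical.

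Recovered totals ran from 30185155 to 87141961 reads per library. Values are given as normalized counts, which are reads divided by a size factor for each library. Red replicate 6 stood apart: it was the lowest or the highest Red library for 66.7% of all tested genes, against 17.4% to 35.3% for the other Red libraries. Changes of call without it are therefore given, as are some log2 folds and marker sums without it. Among the Green libraries, replicate 3 was the lowest or the highest for 48.7% of all tested genes, against 26.3% to 33.6% for the others. Markers of gut, epidermis, neurons, muscle and germline were detected, and none of the marker genes in the table was at 0 in all libraries.

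Members of the family that passed the test were mostly higher in Green, ttr-44, ttr-41 and ttr-46 the most, while ttr-50 was the main member that was lower. Of the 59 members, 48 averaged 10 normalized counts or more over the 12 libraries and were tested. Of these, 16 rose and 2 fell in Green at a limma adjusted p under 0.05 (Benjamini-Hochberg over all 14618 tested genes), and 30 did not pass. Among all tested genes 19% were called higher and 20.1% lower, against 33.3% and 4.17% of the tested members. The share called in either direction, 37.5% of the members, lay near the 39.1% of all tested genes. The median log2 fold of the tested members was 0.28, against 0.04 for all tested genes. Without Red replicate 6 these medians were 0.17 and 0.02. The counts of all 59 members summed to 71044 to 88332 per library in Green, against 63097 to 82446 in Red, where replicate 6 was highest. These figures describe the family and were not tested as a list. Without Red replicate 6, 20 members rose and 8 fell, where 29.3% of all genes were called higher and 25.5% lower. With the batch as a replicate block, 18 members rose and 5 fell, against 23.2% and 22.6% of all genes. edgeR on the recovered reads called 14 members higher and 4 lower, where it called 16.2% and 22.2% of all genes. When libraries were instead centred on their median gene, all tested genes had a median log2 fold of 0.16 and the members 0.41. That scaling called 21 members higher and 1 lower, where 28.5% of all genes were higher and 16.0% lower.

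**Figure D1:**
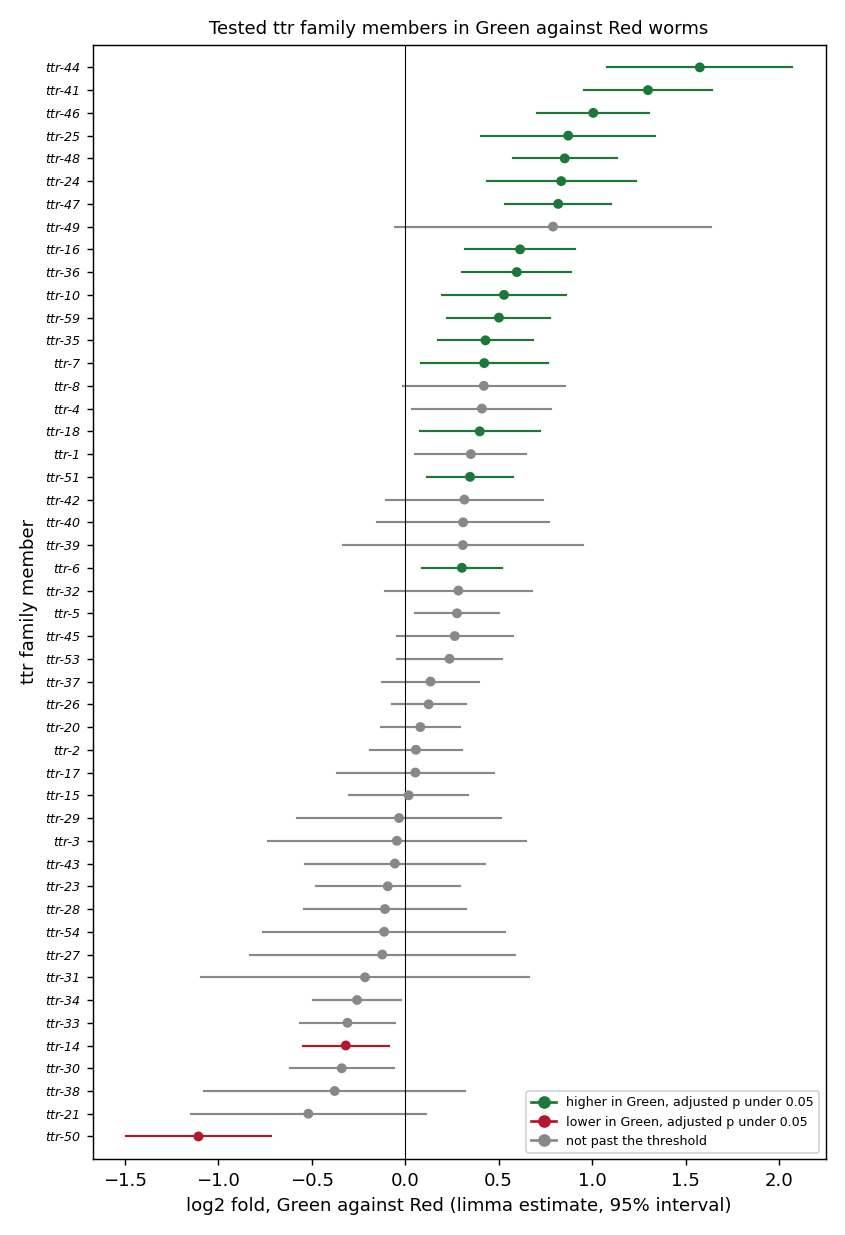
Log2 fold of each tested ttr member in Green against Red (x axis) with its 95% interval (lines), sorted by fold (y axis). The 16 members called higher range from 0.30 to 1.58, and the 2 called lower are ttr-50 at -1.11 and ttr-14 at -0.32.

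The best known member, ttr-52 (WBGene00008719, chromosome III, 13404718 to 13405783), was close to the detection limit in these worms and was not tested. Its normalized counts were 0.81, 5.01, 0, 2.43, 0 and 1.09 in Green replicates 1 to 6, against 3.7, 5.05, 8.46, 6.06, 3.12 and 13.2 in Red replicates 1 to 6. The Red library was the higher one in 6 of 6 batches, but the groups overlapped, in batch 2 the values were almost equal, and the highest value was Red replicate 6. The 0 in Green replicate 3, out of 30185155 reads, allows up to 4.99 normalized counts if 3 reads is taken as the limit that a count of 0 allows, and that in Green replicate 5 allows up to 3.54. These limits cover counting error only.

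The member linked to neuroprotection, ttr-33 (WBGene00016505, chromosome V, 7837093 to 7837909), had 301, 341 and 416 normalized counts in Green (lowest, median and highest library), against 356, 453 and 502 in Red. Means were 348 ± 42.7 in Green libraries and 431 ± 58 in Red libraries (SD, n = 6 each), and the groups overlapped, with the Green library lower in 5 of 6 batches. Its log2 fold was -0.31, with a 95% interval from -0.56 to -0.06, and it just missed the threshold (limma adjusted p = 0.0503). Among other settings, it passed with the replicate block (limma adjusted p = 0.0424), in edgeR (adjusted p = 0.035) and without any 1 of Green replicate 4 and Red replicates 1, 2 and 6. Over all alternatives its adjusted p ran from 0.0165 to 0.265. The gene shares 42 exon bases with txt-5 on the same strand, whose log2 fold was 0.09.

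Genes that act with TTR-52, or elsewhere in the engulfment of dying cells, showed small differences, and how many passed the test varied between settings. Of 13 engulfment genes, all tested, 2 rose, 1 fell and 10 did not pass, where 39.1% of all tested genes were called. The receptor gene ced-1 averaged 11138 ± 634 normalized counts in the Green libraries and 10058 ± 769 in the Red ones (SD, n = 6 each). Its log2 fold of 0.15 did not pass (limma adjusted p = 0.105). Those that rose were ced-7, an ABC transporter gene, at a log2 fold of 0.28, and ced-2, an adaptor gene of the CrkII type, at 0.24. unc-73, which encodes a Trio-like exchange factor for Rac GTPases, fell at -0.45 (limma adjusted p = 0.000892). nrf-5, whose secreted product works with TTR-52, had a log2 fold of -0.20 and did not pass (0.0896). With the replicate block 4 engulfment genes rose and 2 fell, and without Red replicate 6, 5 rose and 4 fell. Median centring called 7 higher and 1 lower, and array weights 6 higher and 4 lower. Quantile normalization called 5 of the 13 lower. Among all tested genes 23.2% were higher and 22.6% lower with the block, and 29.3% and 25.5% without Red replicate 6. Median centring called 28.5% and 16.0% of all tested genes. Of 14618 tested genes, array weights called 4915 higher and 4133 lower, and quantile normalization 2359 and 2349. No engulfment gene was called higher in edgeR without the block, under quantile normalization, without the filter, or when Green replicate 2, 3, 5 or 6 or Red replicate 2, 4 or 5 was left out.

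The genes R09H10.3 and ZK697.8 lie outside the ttr name and encode transthyretin-like proteins close to the hydroxyisourate hydrolases of purine breakdown. R09H10.3 averaged 352 ± 73 normalized counts in the Green libraries and 174 ± 25.9 in the Red ones (SD, n = 6 each). Every Green library lay above every Red library, and the log2 fold was 1.00 (limma adjusted p = 0.000253). ZK697.8 averaged 0.95 in Green and 2.34 in Red and was not tested.

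Among members with no role described here, ttr-44, ttr-41 and ttr-46 rose at least 2-fold in Green. The gene ttr-44 (WBGene00008341, chromosome V, 13529545 to 13530744) had 563, 811 and 988 normalized counts in Green (lowest, median and highest library), against 152, 264 and 426 in Red. All Green libraries were above all Red ones, and Red replicates 6 and 1 were the highest of the Red group. Its log2 fold of 1.58 (standard error 0.23, limma adjusted p = 0.000207) was the largest of the tested members. It shares 167 of its exon bases with R11G10.3 on the opposite strand, but R11G10.3 averaged only 10.6 normalized counts in Green and 18.4 in Red. For ttr-41 (WBGene00017374, chromosome II, 4727328 to 4727869), the values were 1170.2, 1607 and 1759 normalized counts in Green (lowest, median and highest library), against 394, 644 and 864 in Red. The groups did not overlap, and Green was higher by 0.87 to 1.59 on the log2 scale within the batches. Its log2 fold was 1.30 (standard error 0.16, limma adjusted p = 6.62e-05). The third, ttr-46 (WBGene00011571, chromosome V, 9951233 to 9952178), had 2276, 2930.4 and 3237 normalized counts in Green (lowest, median and highest library), against 980.0, 1417 and 1826 in Red. Its groups were also apart, although Red replicates 1 and 6 came closest to Green replicate 5, the lowest Green library. Its log2 fold was 1.01 (standard error 0.14, limma adjusted p = 0.00014). Among all tested genes 2.63% were called higher by at least 2-fold and 8.79% lower.

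ttr-48, ttr-47, ttr-36, ttr-24 and ttr-16, none with a role described here, rose by smaller steps. ttr-48 (WBGene00022515, chromosome X, 3840869 to 3842448) had 955, 1128 and 1394 normalized counts in Green (lowest, median and highest library), against 471, 654 and 778 in Red, with no overlap and a log2 fold of 0.85 (limma adjusted p = 0.000267). For ttr-47 (WBGene00019203, chromosome V, 8923088 to 8923896) there were 1072, 1245 and 1387 normalized counts in Green (lowest, median and highest library), against 468, 715 and 895 in Red. Its groups were apart as well, Red replicate 6 was its lowest library at 468, and the log2 fold was 0.82 (limma adjusted p = 0.000417). Without that library the log2 fold of ttr-47 was 0.70. ttr-36 (WBGene00044605, chromosome X, 6510927 to 6512195) had 231, 268 and 333 normalized counts in Green (lowest, median and highest library), against 137, 185 and 215 in Red. Green replicate 6 and Red replicate 6 were the closest libraries of that gene, and its log2 fold was 0.60 (limma adjusted p = 0.00409).

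In ttr-24 and ttr-16 single libraries made the groups overlap. ttr-24 (WBGene00013077, chromosome V, 18555387 to 18556643) had 1066, 1536 and 1589 normalized counts in Green (lowest, median and highest library), against 513, 831 and 1225 in Red. Green replicate 6, its lowest Green library, lay below Red replicate 1, and the log2 fold was 0.83 (limma adjusted p = 0.00368). Without Red replicate 6, its lowest Red library, that fold was 0.70. ttr-16 (WBGene00012382, chromosome IV, 11063530 to 11064137) had 3677, 4567 and 5468 normalized counts in Green (lowest, median and highest library), against 2116, 2921 and 3695 in Red. Red replicate 6 was just above Green replicate 5, and the log2 fold was 0.61 (limma adjusted p = 0.00362) or 0.68 without Red replicate 6. This gene shares 209 exon bases, 40.7% of its exon length, with lin-3 on the opposite strand, an epidermal growth factor gene that was itself called higher at a log2 fold of 0.35. Whether counting used the strand is not given in the sources used here, so reads of these partners cannot be told apart.

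**Figure D2:**
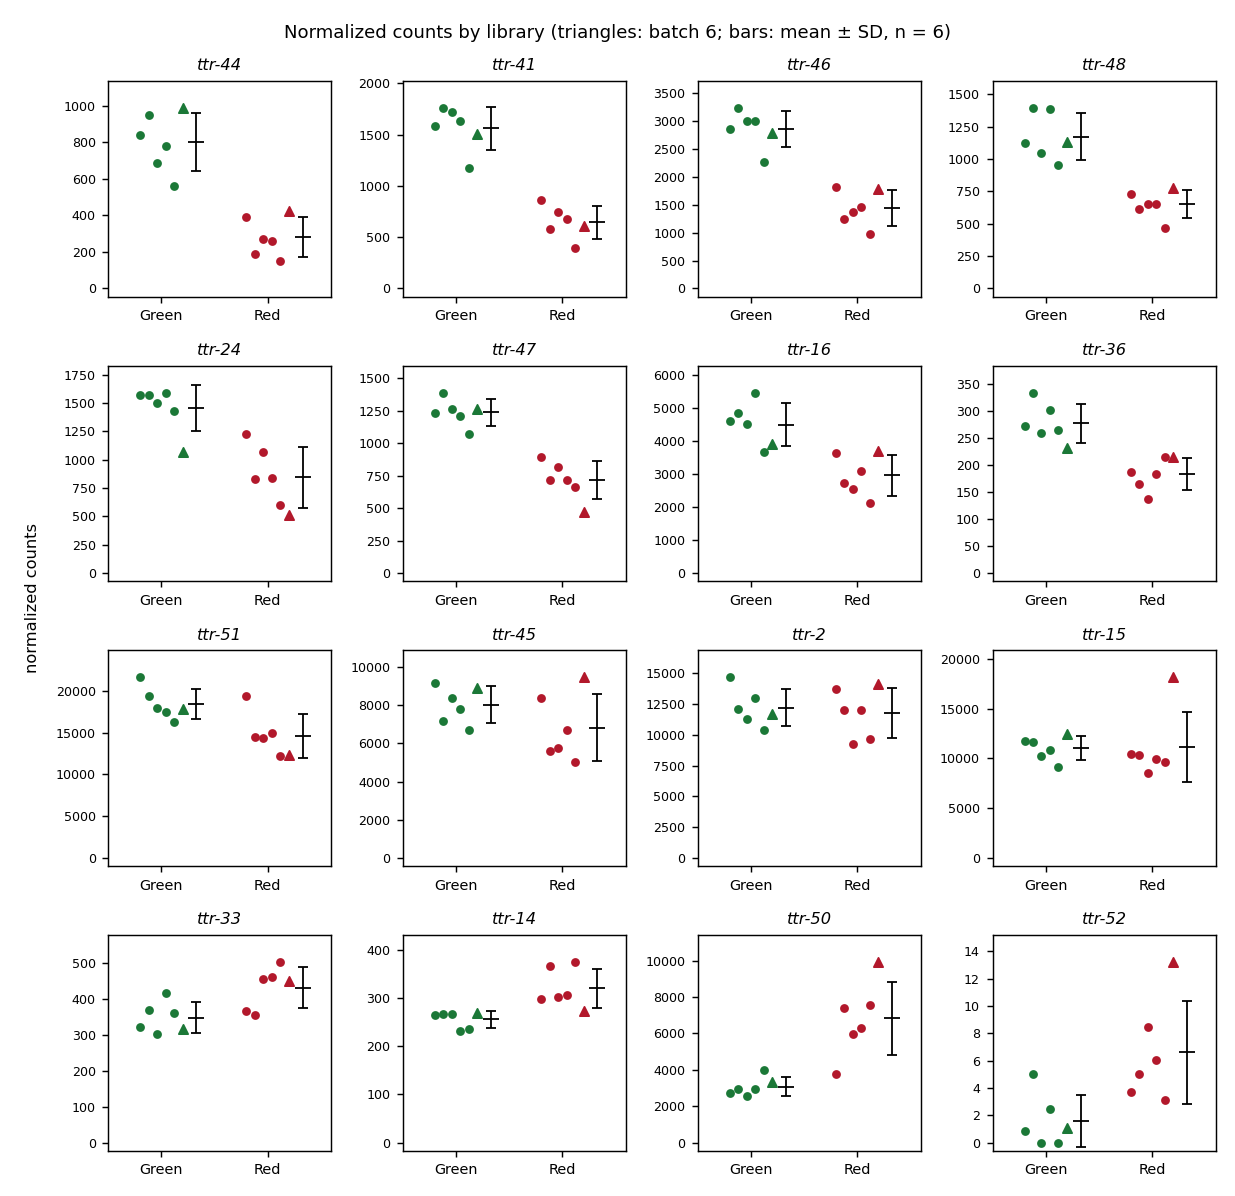
Normalized counts (y axes, one scale per gene) of 16 members named by known role, test result or level in Green (left, green) and Red (right, red) libraries; points are libraries, triangles those of batch 6, and bars the mean ± SD of 6 libraries. The groups do not overlap for ttr-44, ttr-41, ttr-46, ttr-48, ttr-47, ttr-36 and ttr-14, while Red replicate 6 is the highest library of ttr-15 at 18151 and of ttr-50 at 9915.

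Apart from ttr-51, described with the abundant members, 7 other members were called higher, with log2 folds from 0.30 to 0.87. ttr-25 rose at 0.87, although Red replicate 6, at 554, lay within the Green range and left a difference of only 0.03 within batch 6. Without that library the log2 fold of ttr-25 was 1.02. ttr-10, ttr-59 and ttr-35 rose at 0.53, 0.50 and 0.43, and in ttr-59 and ttr-35 every Green library was above every Red one. Without Red replicate 6 the log2 fold of ttr-59 was 0.40. The calls of ttr-7, ttr-18 and ttr-6, at 0.42, 0.40 and 0.30, were weak, with limma adjusted p of 0.0464, 0.0474 and 0.026. The call of ttr-18 ended with the replicate block (limma adjusted p = 0.0522), in edgeR with or without that block, and under quantile normalization. It also ended without the filter, without batch 6, and without any single one of Green replicates 1, 2, 3, 4 and 6 and Red replicates 2, 4 and 5. That of ttr-7 was lost in edgeR (adjusted p = 0.069), in edgeR with the replicate block (adjusted p = 0.0583) and without the filter. It was also lost when any 1 Green library, or any of Red replicates 2, 4 and 5, was left out. ttr-7 shares 74 exon bases with best-17 on the opposite strand, which rose too at 0.54. That of ttr-6 was lost under quantile normalization and when any of Green replicates 2, 3 and 4 or Red replicates 2 and 5 was left out.

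Only ttr-50 and ttr-14 were called lower in Green. ttr-50 (WBGene00010234, chromosome IV, 11640047 to 11641015) had 2544, 2940.3 and 3967 normalized counts in Green (lowest, median and highest library), against 3793, 6850.1 and 9915 in Red. Red replicate 1 was the lowest Red library, just under Green replicate 5, and the other 5 Red libraries were above every Green one. Its log2 fold was -1.11 (standard error 0.18, limma adjusted p = 0.000469), or -0.99 without Red replicate 6, its highest library. Green was lower in 6 of 6 batches, with log2 differences from -1.58 to -0.46. The gene shares 51 exon bases with rbm-17 on the opposite strand, whose log2 fold was 0.17 and did not pass. ttr-14 (WBGene00011460, chromosome X, 10787503 to 10789700) had 231, 265 and 270.0 normalized counts in Green (lowest, median and highest library), against 274, 305 and 375 in Red. Its groups did not overlap, but Green replicate 6 and Red replicate 6 were almost equal, at 270.0 and 274. The log2 fold was -0.32 (limma adjusted p = 0.0311), a call lost under quantile normalization, under median centring, and when any of Green replicates 4 and 5 or Red replicates 2 and 5 was left out. It shares 90 exon bases with vap-2 on the opposite strand, which had a log2 fold of -0.37.

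Per exon length the family spanned a wide range of levels, and 4 members held 61.9% of its summed mean counts. These levels are normalized counts per kilobase of exon, averaged over the 12 libraries. The median over all 59 members was 424 per kilobase. ttr-51 was highest, at 38299 ± 3828 per kilobase in Green libraries and 30355 ± 5424 in Red libraries (SD, n = 6 each). ttr-2 followed at 24586 ± 3018 in Green and 23777 ± 4060.1 in Red. Next was ttr-15, at 18086 ± 1991 in Green and 18339 ± 5722 in Red. ttr-45 came after these, at 11834 ± 1429 per kilobase in Green and 10045 ± 2585 in Red. In Green the means of neighbours in this order were apart by more than their SDs, while in Red the ranges of mean ± SD overlapped between each gene and the next.

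Of these 4 abundant genes, ttr-51 alone passed the test. ttr-51 (WBGene00010440, chromosome IV, 13250655 to 13252311) had 16298, 17871 and 21609 normalized counts in Green (lowest, median and highest library), against 12144, 14413 and 19359 in Red. The groups overlapped through Red replicate 1, yet Green was higher in 6 of 6 batches, and the log2 fold was 0.35 (limma adjusted p = 0.0211), a call lost under quantile normalization and without Red replicate 5. ttr-2 (WBGene00010539, chromosome III, 9927769 to 9929004) had 10359, 11894 and 14664 normalized counts in Green (lowest, median and highest library), against 9234, 12039 and 14115 in Red. Its groups overlapped almost wholly, and its log2 fold was 0.06, the 95% interval running from -0.19 to 0.31. ttr-15 (WBGene00011561, chromosome III, 10337847 to 10339440) had 9107, 11241 and 12479.9 normalized counts in Green (lowest, median and highest library), against 8576, 10132 and 18151 in Red. Its highest Red value was replicate 6, far above the next Red library at 10412, and the log2 fold was 0.02, with an interval from -0.30 to 0.34, or 0.17 without that library. ttr-45 (WBGene00044737, chromosome IV, 13254225 to 13255538) had 6723, 8106 and 9196 normalized counts in Green (lowest, median and highest library), against 5022, 6224 and 9463 in Red. Its log2 fold of 0.27 did not pass (limma adjusted p = 0.155), but it did with the replicate block (0.0307) and without Red replicate 6, where the log2 fold was 0.37 (limma adjusted p = 0.02).

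**Figure D3:**
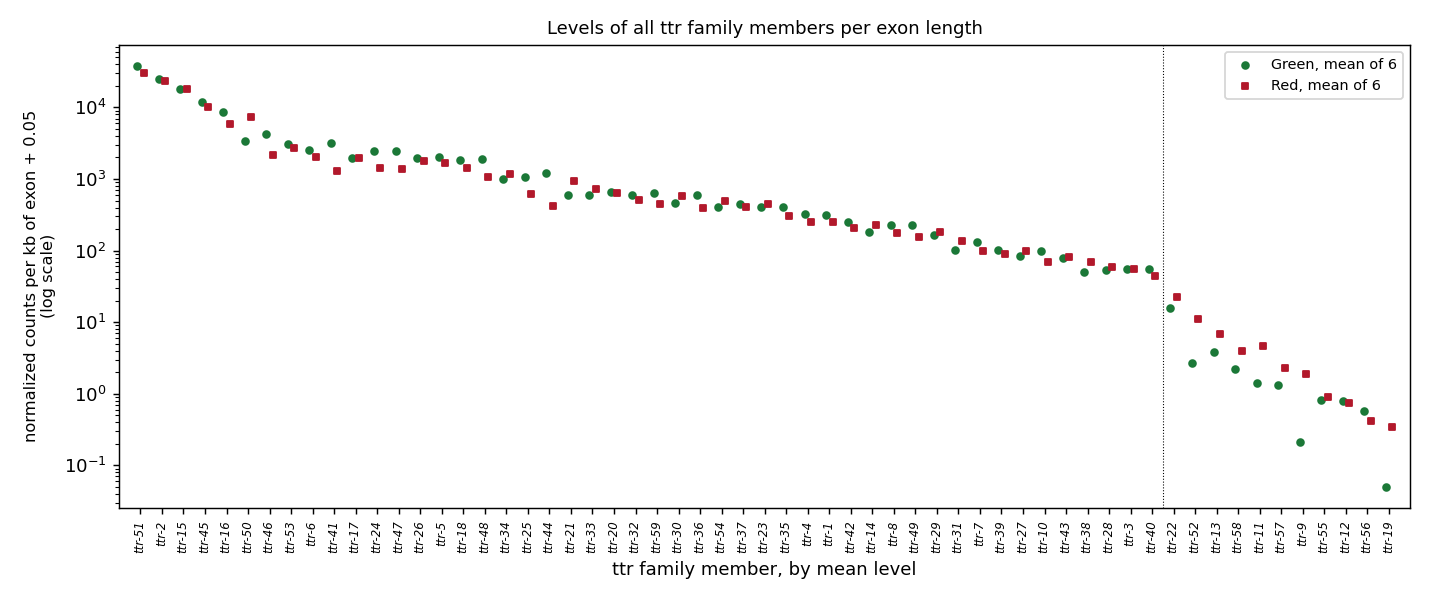
Mean normalized counts per kilobase of exon, plus 0.05, on a log scale (y axis) for all 59 members in order of level (x axis), in Green (circles) and Red (squares); the dotted line separates the 48 tested from the 11 low members. Among the low members, ttr-52 stands at 2.64 in Green and 11.2 in Red.

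The 11 members under the filter were ttr-9, ttr-11, ttr-12, ttr-13, ttr-19, ttr-22, ttr-52, ttr-55, ttr-56, ttr-57 and ttr-58. None exceeded 13.6 normalized counts in any library. ttr-22 was the highest of them, at 7.49 ± 1.52 in Green libraries and 10.5 ± 2.22 in Red libraries (SD, n = 6 each), and was lower in Green in 6 of 6 batches. ttr-19 was at 0 in all Green libraries and in all Red libraries except replicate 4, at 0.87. By level, 11 of the 24 tested members above the median level per kilobase were called higher and 1 lower, against 5 and 1 of the 24 below it. These counts were not compared by a test, and shares of all genes above and below that level are not given. Calls varied with level among all genes too. With a filter at a mean of 50, 2717 of 11327 genes were called higher and 2046 lower. With the filter at 10, these were 2781 and 2938 of 14618. The split by level is therefore not shown to be particular to the family.

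Called members mostly kept their direction within batches, but the calls come from the same libraries, so this is no separate test of them. Of the 16 called higher, 15 were higher in Green in 6 of 6 batches and ttr-18 in 5, and both called lower were lower in 6 of 6. Counting every tested member, 18 (37.5%) were higher in 6 of 6 batches, against 21.1% of all tested genes, and 3 (6.25%) were lower in 6 of 6, against 20.2%. The 3 were ttr-50, ttr-14 and ttr-34. The median difference of the members was 0.13, 0.38, 0.21, 0.19, 0.08 and 0.54 on the log2 scale in batches 1 to 6, and the number of tested members higher in Green was 31, 34, 30, 30, 28 and 40. Medians over all tested genes lay between -0.02 and 0.06 in the same batches. Every Green library was above every Red library for 9 of the 48 members (18.8%), against 7.06% of all tested genes, and below for 1 (2.08%), against 9.71%.

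**Figure D4:**
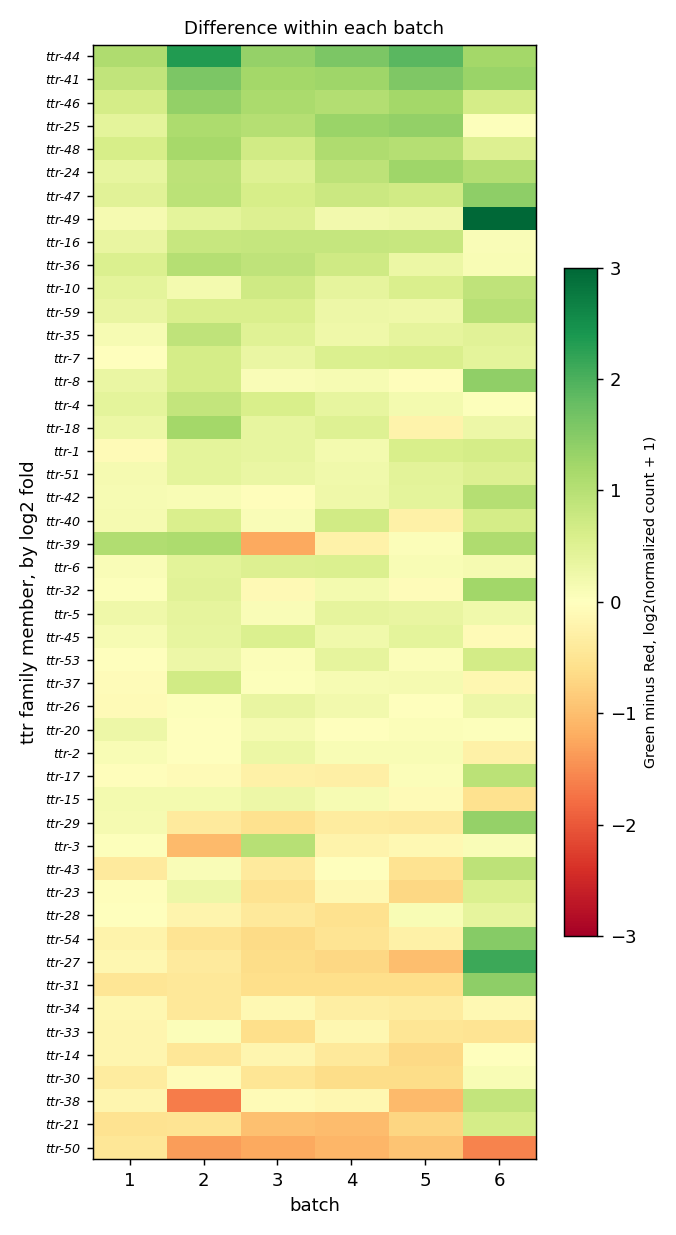
Green minus Red difference of log2(normalized count + 1) within each of 6 batches (columns) for the 48 tested members (rows, by log2 fold), as colour from red (lower in Green) to green (higher in Green). The rows of called members keep their sign across the batches, except ttr-18 in batch 5, and batch 6 differs most from the others, with ttr-49 at 3.20 (the colour scale ends at 3) and ttr-27 at 2.12.

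Red replicate 6 lay apart from the other Red libraries in many uncalled members. It was the lowest Red library for 23 of the 48 tested members (47.9%, against 33.9% of all tested genes) and the highest for 10 (20.8%, against 32.8%). It was the lowest or the highest for 68.8% of the tested members, near its 66.7% of all tested genes. Red replicate 1 held either place for 39.6% of the members, against 19.1% of all tested genes, and was highest for 17. Red replicate 5 did so for 45.8%, against 27.7%, and was lowest for 12 and highest for 10. Leaving out Red replicate 1 called 18 members higher and 3 lower, and leaving out Red replicate 5 called 12 and 1. The members given here were chosen after their values were seen. ttr-49, for which every Green library was above every Red one, had 138 to 164 normalized counts in Green (median 149), against 17 to 136 in Red (median 118). Its Red replicate 6 stood at 17, and the wide spread left a log2 fold of 0.79 without a call (limma adjusted p = 0.123). Without that library the log2 fold was 0.34 and passed (0.0278). ttr-54 had 295 to 438 normalized counts in Green (median 355), against 116 to 532 in Red (median 480.4), and Red replicate 6, at 116, was the only Red library below the lowest Green one. The log2 fold of ttr-54 was -0.11, and -0.46 without Red replicate 6 (limma adjusted p = 0.00285). ttr-21 had 236 to 429 normalized counts in Green (median 299), against 150.3 to 708 in Red (median 511), with Red replicate 6 at 150.3. Its log2 fold was -0.52 without a call, and -0.83 without that library (0.000808).

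Without Red replicate 6, calls grew among all tested genes, from 19% higher and 20.1% lower to 29.3% and 25.5%. All 18 called members were also called without that library, and 10 more passed. Those that joined as higher were ttr-4, ttr-5, ttr-45 and ttr-49, and those that joined as lower were ttr-21, ttr-30, ttr-33, ttr-34, ttr-38 and ttr-54. Of these, ttr-5 also passed with the replicate block (limma adjusted p = 0.0154), as did ttr-4 (0.0412), ttr-30 (0.0428) and ttr-34 (0.0262). The exons of ttr-4 lie wholly within those of cbp-3 on the opposite strand, which had a log2 fold of -0.12, so its value is uncertain. In Green, replicate 5 was the lowest library for 22 of the 48 members, and it was the lowest or highest for 60.4% of them, against 30.6% of all tested genes. Leaving it out called 15 members higher and 1 lower, where 2382 of all 14656 tested genes were called higher and 2756 lower.

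**Figure D5:**
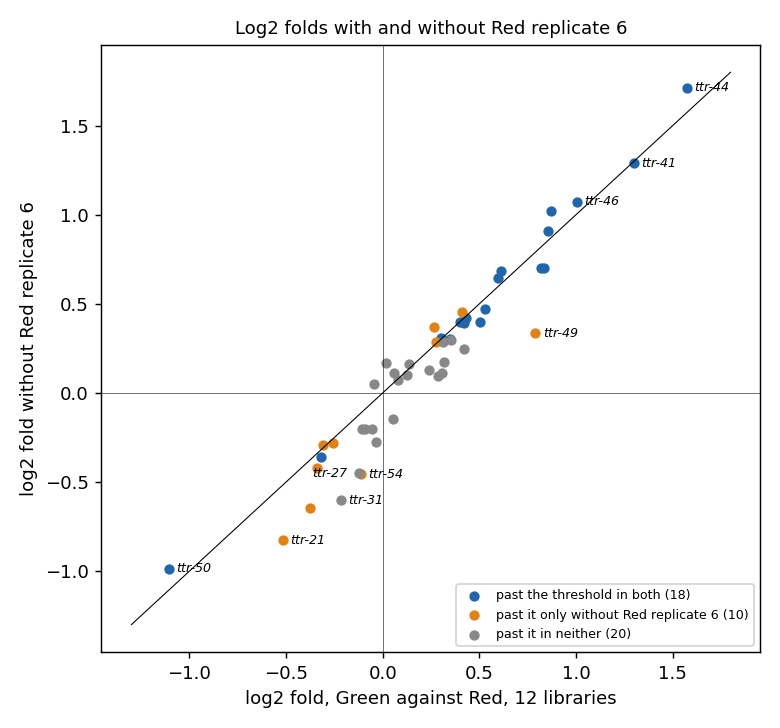
Log2 fold of each tested member over all 12 libraries (x axis) and without Red replicate 6 (y axis); the line marks equality. The 18 members called in both keep near the line, and 10 more pass without that library, ttr-49 moving to 0.34 and ttr-21 to -0.83.

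The remaining 20 tested members passed neither with nor without Red replicate 6. Their log2 folds lay between -0.21 and 0.42. Within this set ttr-1, ttr-8, ttr-42, ttr-40, ttr-39, ttr-32 and ttr-53 had log2 folds of 0.24 or more, and their 95% intervals, apart from that of ttr-1, included 0. ttr-1 had 149.7 to 185 normalized counts in Green (median 170.4), against 109 to 189.8 in Red (median 126) and a limma adjusted p of 0.0573. ttr-20, ttr-26 and ttr-37 had narrow intervals: that of ttr-20 ran from -0.13 to 0.29. ttr-3, ttr-27, ttr-31 and ttr-43 had wide intervals: that of ttr-31 ran from -1.09 to 0.66. ttr-17, ttr-23, ttr-28 and ttr-29 had log2 folds of 0.06, -0.09, -0.11 and -0.03.

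By position, 22 of the 59 members (37.3%) lie on chromosome V and 12 (20.3%) on X, where Ensembl places 25% and 13.7% of all protein-coding genes. Chromosomes I and II hold 3 and 2 members. All 3 on chromosome I were under the filter, and both on II, ttr-41 and ttr-18, were called higher. On V, 6 of 16 tested members rose and none fell. On X, 5 of 12 rose and 1 fell, on IV 2 of 9 rose and 1 fell, and on III 1 of 9 rose. Over all chromosomes 33.3% of the tested members and 19% of all tested genes were called higher, and the counts per chromosome are too small to set against these shares.

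Of the 59 members, 30 sit in 12 stretches in which neighbouring members are at most 20 kb apart, with 2 to 4 members each. Neighbours did not always share a call. ttr-36 and ttr-35, adjacent on X, both rose, at 0.60 and 0.43. ttr-24 and ttr-25, adjacent on V, rose at 0.83 and 0.87, while ttr-26, the third of that stretch, had a log2 fold of 0.13 and did not pass. ttr-59 and ttr-30 lie next to each other on X, on the same strand. ttr-59 (WBGene00020339, chromosome X, 7329818 to 7330669) had 438, 475 and 574 normalized counts in Green (lowest, median and highest library), against 235, 369 and 386 in Red. ttr-30 (WBGene00020335, chromosome X, 7330949 to 7331903) had 281, 307 and 330.0 normalized counts in Green (lowest, median and highest library), against 289.9, 408 and 508 in Red. In 5 of 6 batches its Green library was the lower one, and its log2 fold of -0.34 just missed the threshold (limma adjusted p = 0.0513), while ttr-59 was higher in 6 of 6.

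A test of the difference was added after seeing these values: the log2 ratio of 2 neighbouring tested members was compared between the groups for all 14 such pairs by a two-sided exact permutation test over 924 assignments of the libraries. For ttr-59 over ttr-30 the log2 folds differed by 0.84 (exact p = 0.00216, or 0.0303 when adjusted for the 14 pairs). That exact p is the lowest the 924 assignments allow. An exact test by sign flips within batches, as a replicate block, gave p = 0.0313, the smallest they allow, and 0.438 adjusted. Even at that smallest p, 1 pair alone among the 14 could not pass after adjustment, so this version cannot decide about it. No other pair passed: ttr-25 over ttr-26 differed by 0.75 (exact p = 0.0173, adjusted 0.121) and ttr-16 over ttr-17 by 0.56 (exact p = 0.119, adjusted 0.333). Both of these passed without Red replicate 6, at adjusted exact permutation p of 0.0101 and 0.0152, as did ttr-54 over ttr-53 (0.0101) and ttr-59 over ttr-30 (0.0101).

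Markers of several tissues moved between the groups alongside the family. All 10 germline and oocyte markers rose, and their summed level was 595645 to 763584 normalized counts in Green, against 313982 to 648919 in Red. The highest Red sum was replicate 6, and the other 5 Red libraries reached 516477, below every Green library. All 13 moulting and apical matrix markers fell, with summed levels of 3283 to 6812 in Green, against 8685 to 22889.7 in Red. The other lists are to be read against the 19% of all tested genes called higher and the 20.1% called lower. Of 8 intestine markers 3 rose and 1 fell, and of 6 body wall muscle markers 4 rose and 1 fell. Of 10 neuronal markers none rose and 4 fell, of 9 epidermal markers 3 rose and 3 fell, and of the 4 glial markers tested 1 fell. Of the 6 sperm markers tested 1 fell, and of the 6 early embryo markers tested 3 fell. All 12 early embryo markers, tested or not, summed to 573 to 848 in Green, against 1014 to 1300.4 in Red. Summed levels of intestine markers were 50462 to 90556 in Green, against 28712 to 58234 in Red. Without Red replicate 6 the Red sums of intestine markers reached 44362, which is below every Green library. The intestine sum came mostly from cpr-1, which rose, and asp-1, which was not called, while act-5 fell at a log2 fold of -0.60. Neuronal markers summed to 15458 to 17318 in Green, against 17222 to 21927 in Red. Muscle markers summed to 29539 to 50107 in Green, against 19561 to 34572 in Red. Epidermal markers summed to 11633 to 13255 in Green, against 9364 to 11939 in Red. Without Red replicate 6 the Red sums of epidermal markers reached 11411, again below every Green library. The epidermal sum came mostly from lin-26 and nhr-23, at means of 6792 and 4028 normalized counts in Green, which rose at 0.25 and 0.49. In the same list nhr-25, dpy-7 and elt-1 fell at -1.72, -1.50 and -0.62, and col-19 rose at 2.88. The median log2 fold of the epidermal list was -0.28. The 6 glial markers, tested or not, summed to 2218 to 3195 in Green, against 2412 to 3884 in Red. The 10 sperm markers, tested or not, summed to 292 to 332 in Green, against 347 to 463 in Red. In whole worms fewer cells of a type and less RNA per cell cannot be told apart, and the part of these differences in the values of the ttr members was not tested.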

How the data were processed

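RNA libraries were made with a Roche Kapa stranded mRNA kit from total RNA, per the labels' protocols. The submitters' processing notes name build WBcel235 and, among tools, DESeq2, Salmon 0.14.2, STAR, MultiQC and FastQC 0.11.8. How they were set, strand included, is not given in the sources used here. Values for 21982 genes were deposited as a normalized signal, in which the authors had divided gene counts by 1 size factor per library. Multiplied by the recovered factor, 100% of the values were whole within 0.001, and totals per library ran from 30185155 to 87141961 reads. For Red replicate 2 the factor is so near 1 that this test says less. Libraries of the same group all differed by more than sampling noise.

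In R 4.3.3, limma 3.58.1 with a trended eBayes step was fitted to log2(normalized count + 1) for 14618 genes averaging 10 or more, with Benjamini-Hochberg adjustment over all of them. Log2 folds are Green against Red on that scale, which draws folds of low genes toward 0. The script was tested on simulated counts. Alternatives were the replicate block, other pseudocounts, filters and scalings, robust eBayes, array weights, edgeR 4.0.16 (TMM scaling) and DESeq2 1.42.0 on recovered reads, and leaving out libraries. Each batch number in the labels is shared by 1 Green and 1 Red library and so pairs them; deviations from the group means correlated within batches by 0.11 to 0.37. The members, gene lists and tests were chosen with earlier results of these data known. Full values are given for ttr-52 and ttr-33, for the 8 members with the smallest p in each direction among those called with a mean of at least 50 (only 2 were lower), and for the 4 highest per exon length. The neighbours ttr-59 and ttr-30 were added after their values were seen. Lengths and positions are from Ensembl release 115. Figures used Python 3.11.15 with matplotlib 3.10.9.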

Additional observations from a re-analysis of the deposited data

Results flagged for a closer look

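Single libraries that lay far from the rest of their group, by Dixon's ratio of the gap to the range, were found in 9 of the 98 groups of 6 libraries looked at. Chance alone flags about 1 in 20 groups. Of the 9, 4 were Red replicate 6. In that library ttr-15 stood at 18151 normalized counts, with the next Red library at 10412, and ttr-17 at 434, ttr-49 at 16.98 and ttr-54 at 116 were far below the nearest Red libraries, at 897, 96.7 and 456. Elsewhere, ttr-24 in Green replicate 6 was low at 1066, with the nearest Green library at 1432. ttr-35 was high in Green replicate 2, at 283 against 225 in the nearest. ttr-59 was high in Green replicate 3, at 574 against 489. ttr-1 was high in Red replicate 1, at 190 against 132. ttr-18 was low in Red replicate 2, at 517 against 761, and without that library its call was lost. What set these libraries apart was not tested.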

How the results depend on the processing

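Of the 18 calls among members, 13 held in all 25 alternatives, 12 of them higher and 1 lower in Green, and none reversed. The other 5 were those of ttr-6, ttr-7, ttr-14, ttr-18 and ttr-51. Of the 30 members without a call, 16 passed in at least 1 alternative. The count of members called higher ran from 14 to 21 over the alternatives that kept all libraries, and from 12 to 20 with 1 library left out. The 12 came without Red replicate 5, where 2134 of all 14567 tested genes were higher and 2469 lower. The 20 came without Red replicate 6, where 4291 of 14626 were higher. Among all 14618 tested genes, 2781 were higher in the main limma fit, 2359 under quantile normalization and 4915 with array weights. The count of members called lower, 2, is small and moved more. It was 5 with the replicate block, 4 in edgeR, 5 in edgeR with the replicate block and 6 in DESeq2. It was 7 with array weights, 1 under quantile normalization, 1 under median centring and 6 without batch 6. With 1 library left out it ran from 1 to 8. Among all tested genes 2938 were lower in the main fit, against 3309 with the replicate block, 3317 in DESeq2 and 4133 with array weights. Quantile normalization called 2349 of them lower, median centring 2337 and edgeR with the replicate block 3466. Without batch 6, 3495 of 14649 tested genes were lower. The replicate block took away the call of ttr-18 and added those of ttr-4, ttr-5, ttr-30, ttr-33, ttr-34 and ttr-45, and changed no other call of a member. The median log2 fold of the tested members was above 0 in every alternative, from 0.10 without the filter, where low members enter it and the median of all genes was -0.13, to 0.41 under median centring; with 1 library left out it ran from 0.17 to 0.33. Depth limits the 11 members under the filter, whose folds are not given.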
